A study of Mus musculus with 8 samples.

Results

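Imprinted genes were followed across an siRNA experiment in mouse embryonic stem cells. The 34 genes listed cover the classic mouse imprinted domains, and a gene counted as measured when a probe set carried its symbol and no other. That held for 28 of them, among 19935 genes measured in all, and each of the 28 had only that probe set. Snrpn, Gnas and Ube3a lay only on probe sets that carry several gene symbols, and H19, Kcnq1ot1 and Slc22a3 were not analysed here.

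The cells were of the R1 line, mouse embryonic stem cells grown in pluripotent conditions per the growth protocol, and RNA was taken 48 hours after transfection. Of the 8 arrays, 3 were from cells given a control siRNA, 3 from cells given siRNA 1 against CnAb1 and 2 from cells given siRNA 2 against CnAb1, so every group was transfected and all are of the same line. CnAb1 is a splice variant of the calcineurin catalytic subunit that Ppp3cb encodes, and the question here was whether imprinted transcripts differ when it is targeted. Values are log2 expression of a probe set after RMA, the authors' normalization and probe summary, so a difference of 1 is 2-fold.

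Imprinted genes are expressed mainly from the allele inherited from the mother or from the father. Most lie in domains governed by an imprinting control region whose DNA methylation is set in the egg or sperm and is kept through the loss of methylation elsewhere in the early embryo. Many of them act in growth of the fetus and placenta, and in cultured embryonic stem cells their methylation and expression are known to drift between lines and passages. The arrays measure the sum of both alleles, so they do not show whether imprinting was kept.

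The arrays were alike over all genes, with correlations from 0.9949 to 0.9989 between pairs. Among them siRNA 1 replicates 1 and 2 stood at the ends, with the lowest and the highest lower quartile (7.07 and 7.25, against 7.08 to 7.19 on the others). Whether the replicates of a group came from different cultures is not in the labels, and p-values therefore cover only the spread seen here, possibly a technical one. All 10 pluripotency markers checked, Pou5f1 and Nanog among them, lay above the upper quartile on every array. Of the 16 fibroblast (feeder cell) markers 1 did so, and 1, Lum, lay below the lower quartile on all 8. In mean level most of the 16 lay above the median gene, and they ran from Lum, above 8.2% of genes, to Acta2, above 87.2%. For Ppp3cb the control arrays had a mean of 10.63 ± 0.07 (SD, n = 3), the siRNA 1 arrays 10.76 ± 0.29 (SD, n = 3) and the siRNA 2 arrays 11.11 ± 0.07 (SD, n = 2). It was not lower, but its probe set is not known to read the CnAb1 variant, so this does not check the knockdown.

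Sequence upstream of the starts was described first, without regard to where the imprinting control regions lie. Of the 28 genes 23 had at least 1 window of 250 bases before a start in RefSeq (GRCm38.p6), and Cdkn1c, Rtl1, Peg10, Sgce and Impact did not. A member's window held 10 CpG in the median, from 0 to 40, against 6 over the 32851 windows of all genes. Peg3 and Usp29, both usually expressed from the paternal allele, start next to each other on opposite strands. The 163 bases between their starts (chr7:6730420-6730582, plus strand) lie upstream of both and are shown because the readings of these genes are compared below. Capitals mark the 5 CpG in this stretch, and Peg3 is read leftwards from its left end and Usp29 rightwards from its right end.
Peg3-Usp29: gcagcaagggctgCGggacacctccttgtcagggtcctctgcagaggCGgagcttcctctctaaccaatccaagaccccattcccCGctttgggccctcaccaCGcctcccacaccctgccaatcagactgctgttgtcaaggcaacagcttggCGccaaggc

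The 6-base motif TGCCGC, which the zinc finger protein ZFP57 binds when its CpG is methylated and by which imprints are maintained in stem cells, was searched on both strands of these windows. It was found for 6 of the 23 members (26.1%), where 9.84% of all genes with a window hold it. No test was made of that difference. Each motif nearest the start is shown with 12 bases on either side, 5′ to 3′ on the strand of the gene, with the motif or its reverse complement GCGGCA in capitals. They lie at chr12:109540794-109540823 (plus) for Meg3, chr6:30737971-30738000 (plus) for Mest, chr6:58907133-58907162 (minus) for Nap1l5, chr10:13090730-13090759 (plus) for Plagl1, chr1:63200239-63200268 (plus) for Zdbf2 and chr7:6696435-6696464 (minus) for Zim1.
Meg3: gccaggggcactGCGGCAgatttttttttc
Mest: aggaggggcgctGCGGCAggatgggcgggt
Nap1l5: cagccattcactTGCCGCgagccgcgaagc
Plagl1: ctggcgtgttgcGCGGCAaagcccacggca
Zdbf2: ccccaccccaccGCGGCAtcgatcggcacg
Zim1: gaaagtcatcccGCGGCAttccactccggg
The siRNA average read higher than control for 4 of these 6 genes and lower for 2, from -0.14 to 0.13 on the log2 scale. Of all 28 members 10 read higher, and of all 19935 genes 11176 did. A match here is a description of the letters and not a measured binding site.

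Most of the imprinted genes gave clear signal in these stem cells. On all 8 arrays 21 of the 28 lay above the array's median gene, and 11 lay above its upper quartile, namely Phlda2, Meg3, Igf2r, Peg3, Peg10, Mest, Grb10, Impact, Slc38a4, Zdbf2 and H13. Mkrn3 lay below the lower quartile on all 8 arrays, and Airn, Usp29 and Nap1l5 did so on 7, 4 and 1 of them, so whether these 4 were detected is unknown. How bright a probe set is also depends on its probes, so the levels place a gene within the array and do not order the genes by transcript number.

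**Figure D1:**
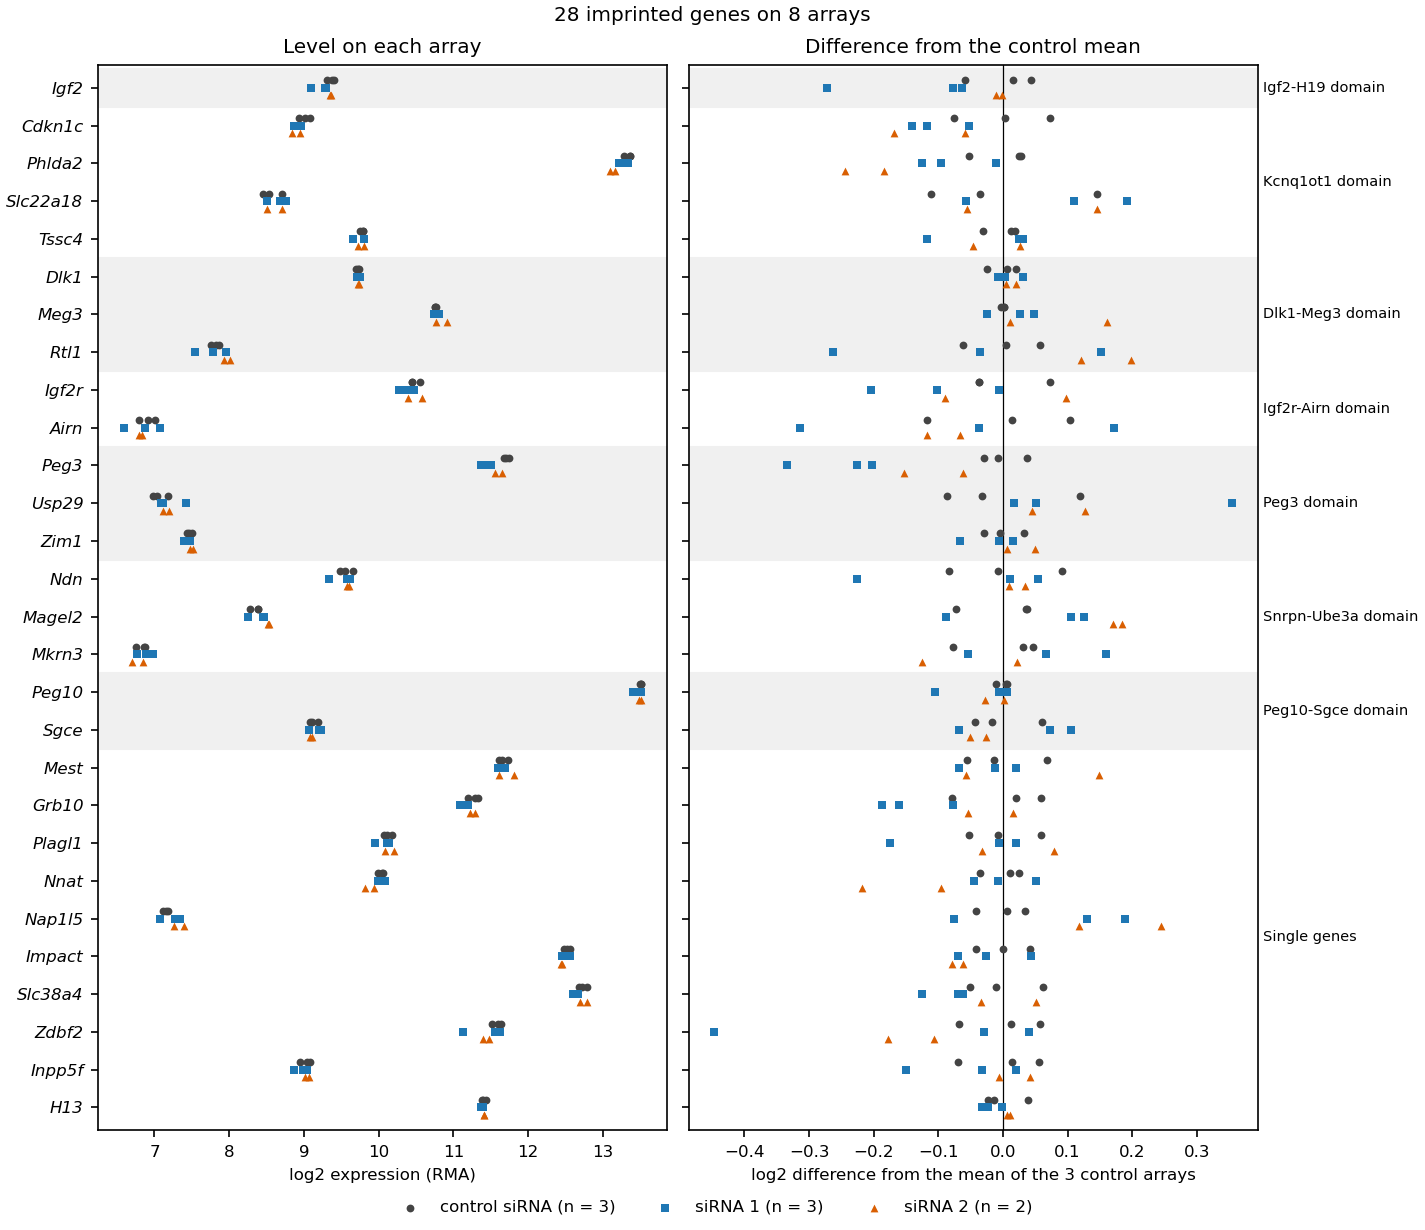
Left, log2 expression of each of the 28 imprinted genes on each array; right, the same values as the log2 difference from the mean of the 3 control arrays. Each point is 1 array, with shape and colour by group, and shaded bands separate the domains; most points lie within 0.2 of the control mean, and Zdbf2 on siRNA 1 replicate 3 and Usp29 on siRNA 1 replicate 2 lie farthest out.

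The Peg3 domain held the member nearest to a call. Peg3, a zinc finger gene expressed from the paternal allele, read 11.70, 11.68 and 11.75 on the control arrays, 11.48, 11.51 and 11.37 with siRNA 1, and 11.56 and 11.65 with siRNA 2. All 5 siRNA arrays lay below all 3 controls, and the siRNA 1 arrays lay below those of siRNA 2. Such a separation was seen for 1 of the 28 members, while over all genes 4.74% separated in either direction and 2.25% in this direction. In the other direction, with all siRNA arrays above all controls, there were 0 members and 2.49% of all genes. The siRNA average lay -0.18 from control (SE 0.05, 95% interval -0.30 to -0.07, 1.13-fold), siRNA 1 lay -0.25 from it (SE 0.06) and siRNA 2 lay -0.11 from it (SE 0.06). None passed limma's test over all genes, with adjusted p of 0.769, 0.805 and 0.85. The difference between the siRNAs, 0.15 (SE 0.06), did not pass either (adjusted p = 1). Without siRNA 1 replicate 1 the siRNA average lay -0.188 from control, without siRNA 1 replicate 2 -0.194, and without both -0.22. Leaving out any other single array gave -0.158 to -0.203, with -0.161 without siRNA 1 replicate 3.

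Usp29, a deubiquitinase-like gene that starts beside Peg3 on the other strand, gave no like reading. Its values were 6.98, 7.03 and 7.18 on the controls, 7.08, 7.42 and 7.11 with siRNA 1 and 7.19 and 7.11 with siRNA 2, so the groups overlapped and 1 array, siRNA 1 replicate 2, stood high. The siRNA average lay 0.11 above control (SE 0.08, limma's adjusted p = 0.807), and 0.06 above it without that array. It was singled out after its values were seen, and its signal is near the lower quartile of the arrays. Zim1, the maternally expressed zinc finger gene of the domain, stayed between 7.40 and 7.52 on all arrays.

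**Figure D2:**
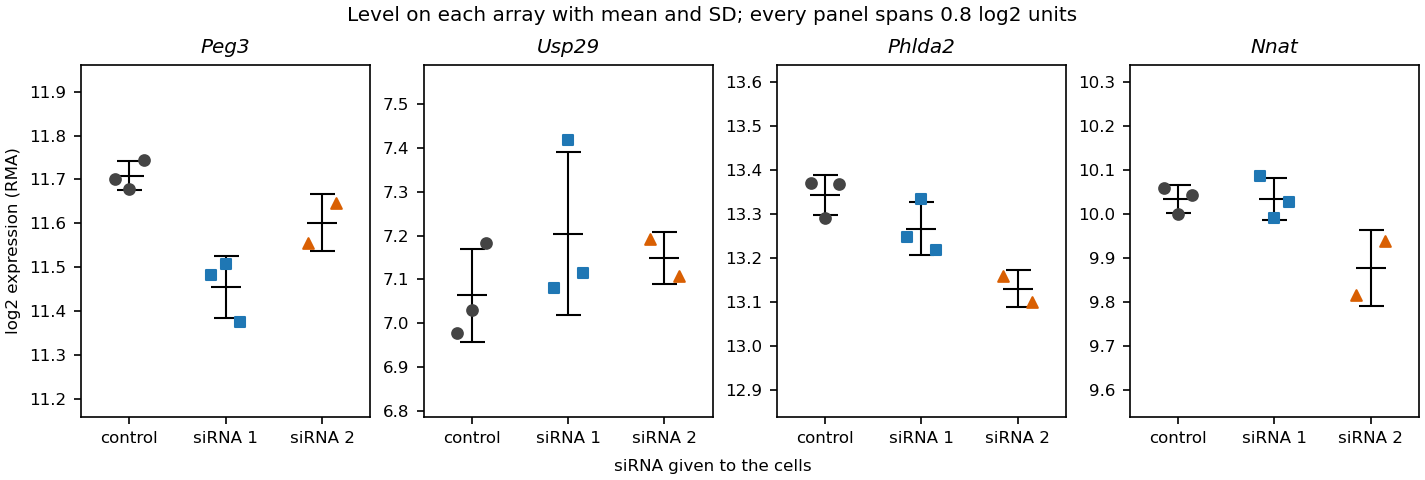
Log2 expression of Peg3, Usp29, Phlda2 and Nnat on each array (points) with the mean and SD of each group (bars; n = 3, 3 and 2), every panel spanning the same width of the log2 scale. The siRNA arrays of Peg3 all lie below the 3 controls, those of Usp29 overlap them, and for Phlda2 and Nnat the 2 siRNA 2 arrays lie below every other array.

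In the Kcnq1ot1 domain, where a paternally expressed long RNA silences its neighbours, 4 of the 5 listed genes were measured. Phlda2, a maternally expressed gene that limits placental growth, read 13.37, 13.29 and 13.37 on the controls, 13.25, 13.33 and 13.22 with siRNA 1 and 13.16 and 13.10 with siRNA 2. Both siRNA 2 arrays lay below every other array, while siRNA 1 overlapped the controls. The difference from control was -0.15 for the siRNA average (SE 0.05, adjusted p = 0.769) and -0.21 for siRNA 2 (SE 0.06, adjusted p = 0.794), and siRNA 2 lay -0.14 from siRNA 1 (SE 0.06, adjusted p = 1), with none called by limma.

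Cdkn1c, the maternally expressed cyclin-dependent kinase inhibitor of the domain, read 9.08, 9.01 and 8.94 with control siRNA, 8.96, 8.89 and 8.87 with siRNA 1 and 8.84 and 8.95 with siRNA 2. Its groups overlapped, with an siRNA average of -0.11 from control (SE 0.05, limma's adjusted p = 0.769) and siRNA 1 at -0.10 (SE 0.06, adjusted p = 0.87). Without control replicate 1 these were -0.072 and -0.067. Tssc4 read 9.66 to 9.81 and the transporter gene Slc22a18 read 8.45 to 8.76 over the 8 arrays, with both ends of the Slc22a18 range in different groups. Of the 4 genes 3 read lower and 1 higher with the siRNA average, and 0 passed. Tssc4 at -0.02 (SE 0.05) and Slc22a18 at 0.06 (SE 0.08) were both within their error of 0.

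The Dlk1-Meg3 domain is often used as a gauge of stem cell quality, because loss of its maternal long RNA Meg3 marks lines with poor developmental potential. Meg3 read 10.76, 10.76 and 10.76 on the controls, 10.74, 10.81 and 10.79 with siRNA 1 and 10.77 and 10.92 with siRNA 2. It lay above the upper quartile on all 8 arrays. Of the 5 siRNA arrays 4 lay above all controls, siRNA 2 replicate 1 by little, and siRNA 1 replicate 1 lay below them. Rian, a neighbouring long RNA from the further genes listed below, had a mean of 7.33, above 28.8% of genes. Its siRNA average lay -0.14 from control (SE 0.08, limma's adjusted p = 0.774). Dlk1, a paternally expressed membrane protein gene of the Notch ligand type, stayed between 9.70 and 9.75 on all 8 arrays. Rtl1, a paternally expressed retrotransposon-derived gene needed in the placenta, varied more, reading 7.87, 7.75 and 7.82 with control siRNA, 7.55, 7.78 and 7.96 with siRNA 1 and 7.93 and 8.01 with siRNA 2. Its siRNA 1 arrays alone spanned most of its range, and both siRNA 2 arrays lay above the controls. siRNA 2 lay 0.21 above siRNA 1 (SE 0.10, limma's adjusted p = 1), 0.102 above it without siRNA 1 replicate 1 and 0.008 above it without siRNA 1 replicates 1 and 2.

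Igf2, Igf2r and Grb10 belong to growth factor signalling. Igf2, the paternally expressed growth factor, read 9.41, 9.31 and 9.38 on the controls, 9.29, 9.09 and 9.30 with siRNA 1 and 9.35 and 9.36 with siRNA 2. The siRNA 1 arrays lay just below the controls, and the difference of -0.14 (SE 0.07, limma's adjusted p = 0.87) was -0.071 without replicate 2. Grb10, a maternally expressed adaptor that restrains insulin and IGF signalling, read 11.20, 11.33 and 11.29 with control siRNA, 11.20, 11.09 and 11.11 with siRNA 1 and 11.22 and 11.29 with siRNA 2. It lay -0.14 from control with siRNA 1 (SE 0.06, limma's adjusted p = 0.87), where the groups overlapped narrowly. The siRNA average lay -0.08 from control (SE 0.05, adjusted p = 0.784), and -0.051 without control replicate 2. Igf2r, the maternally expressed receptor that clears IGF2, read 10.28 to 10.58, and Airn, the paternal long RNA that overlaps and silences it, read 6.59 to 7.08, both with control values inside the range of the siRNA arrays.

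Of the Snrpn-Ube3a domain, deleted in Prader-Willi and Angelman syndromes, 3 paternally expressed genes were measured. Magel2, a ubiquitin ligase partner, read 8.38, 8.27 and 8.38 on the controls, 8.26, 8.47 and 8.45 with siRNA 1 and 8.53 and 8.52 with siRNA 2. The siRNA 2 arrays were the highest, with a difference from control of 0.18 (SE 0.08, limma's adjusted p = 0.812), while siRNA 1 lay on both sides of the controls. The siRNA average lay 0.11 above control (SE 0.06, adjusted p = 0.774). Ndn, a neuronal growth suppressor, read 9.34 to 9.66 and Mkrn3, a makorin ubiquitin ligase, 6.70 to 6.99. Ndn and Mkrn3 differed by -0.02 (SE 0.07) and 0.003 (SE 0.06) with the siRNA average, both within their error of 0.

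Peg10, a retrotransposon-derived gene that the placenta needs, and Sgce, a sarcoglycan, make up a pair of paternally expressed neighbours. Peg10 read 13.40 to 13.52 and Sgce 9.06 to 9.23 on the 8 arrays, and neither separated the groups.

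The other members lie alone or in small domains. Nnat, a paternally expressed endoplasmic reticulum protein gene, read 10.06, 9.999 and 10.04 on the controls, 10.09, 9.99 and 10.03 with siRNA 1 and 9.82 and 9.94 with siRNA 2. Both siRNA 2 arrays lay below the other 6, at -0.16 from control (SE 0.06, limma's adjusted p = 0.812) and -0.16 from siRNA 1 (SE 0.06, adjusted p = 1). Without siRNA 2 replicate 1 these were -0.096 and -0.097. The siRNA average lay -0.08 from control (SE 0.05, adjusted p = 0.783), and -0.048 without that array. Nap1l5, a paternally expressed nucleosome assembly gene of dim signal, read 7.16, 7.18 and 7.11 with control siRNA, 7.07, 7.34 and 7.28 with siRNA 1 and 7.39 and 7.27 with siRNA 2. All siRNA arrays but siRNA 1 replicate 1 lay above the controls, and siRNA 2 differed by 0.18 (SE 0.08, limma's adjusted p = 0.812), or by 0.117 without siRNA 2 replicate 1. The siRNA average differed by 0.13 (SE 0.07, adjusted p = 0.769).

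Zdbf2, a paternally expressed gene that acts in the hypothalamus on growth, read 11.51, 11.64 and 11.59 on the controls, 11.62, 11.55 and 11.13 with siRNA 1 and 11.47 and 11.40 with siRNA 2. siRNA 1 replicate 3 stood below all other arrays. The siRNA average lay -0.14 from control (SE 0.10, limma's adjusted p = 0.795) and -0.068 without that array. Both siRNA 2 arrays also lay below the controls. Slc38a4, an amino acid transporter gene, read 12.68 to 12.79 on the controls and 12.61 to 12.67 with siRNA 1, just below them, while siRNA 2 overlapped them. Impact, a regulator of translation, read 12.48 to 12.56 on the controls and 12.44 and 12.46 with siRNA 2, again just below them, while siRNA 1 overlapped them. For Mest, Plagl1, Inpp5f and H13 both siRNA groups overlapped the controls, with whole ranges over the 8 arrays from 0.07 for H13 to 0.25 for Plagl1.

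Over the 28 genes none was called in any comparison. At an adjusted p under 0.05 limma called 0 of 28 members and 0% of the 19935 genes for the siRNA average, siRNA 1, siRNA 2 and the difference between the siRNAs alike. At an unadjusted p under 0.05 there were 2 members for the siRNA average, Peg3 and Phlda2, both lower (7.14% of members, against 6.31% of all genes). For siRNA 1 there were 2, Peg3 and Grb10 (7.14%, against 5.33% of all genes). For siRNA 2 there were 3, Phlda2, Nnat and Magel2 (10.7%, against 6.07%). Between the siRNAs there were 2, Nnat and Peg3 (7.14%, against 4.48%). Each share of the members lay above that of all genes but rests on only 2 or 3 genes, and no test was made of it. Both comparisons with control share the 3 control arrays. Without control replicate 1 the siRNA average gave 1 such member (4.81% of genes). Without siRNA 1 replicate 1 it gave 5, when 18% of all genes passed. For siRNA 1 there were 5 without its replicate 1 (20.1% of genes), and 1 without its replicate 2 (5.25%), control replicate 2 (2.14%) or control replicate 3 (3.88%). For siRNA 2 there were 5 without siRNA 1 replicate 1 (9.93%), and 1 without control replicate 1 (4.47%), control replicate 3 (4.8%) or its own replicate 1 (4.73%). Between the siRNAs there was 1 without any 1 control or siRNA 2 array (2.11% to 6.24%).

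The sizes were small as well. For the siRNA average 10 members read higher and 18 lower, against 11176 higher and 8759 lower of all 19935 genes. The median difference was -0.016 against 0.011 over all genes. The median size without sign was 0.051 for the members and 0.052 for all genes. The 95% interval lay within 1.5-fold for all 28 members, as for 99.8% of genes. By parental allele, 7 of the 19 paternally and 3 of the 9 maternally expressed members read higher, with medians of -0.016 and -0.015. With siRNA 1 the member median was -0.028 against 0.016 over all genes, or -0.0096 against 0.014 without its replicate 2. With siRNA 2 it was 0.006 for the members and 0.006 for all genes. Of the members 9 read higher with siRNA 1 and 15 with siRNA 2, against 11691 and 10545 of all 19935 genes. The interval for single siRNAs lay within 1.5-fold for all 28 members too.

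**Figure D3:**
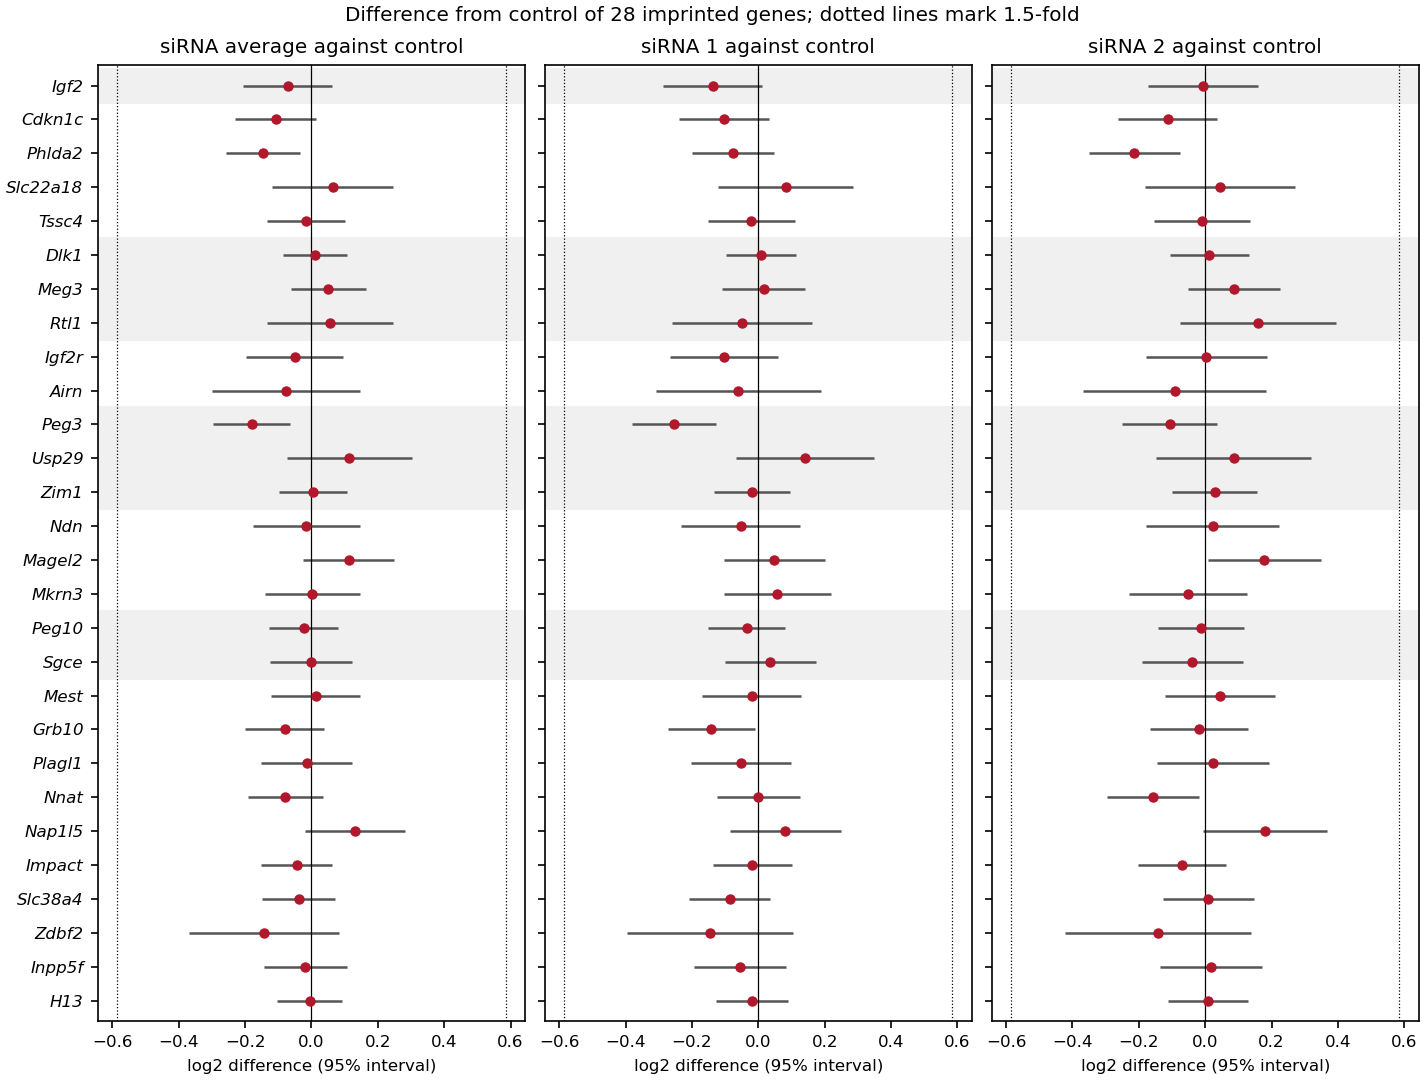
Log2 difference from control of each of the 28 imprinted genes for the siRNA average, siRNA 1 and siRNA 2 (points), with limma's 95% interval (lines) and dotted lines at 1.5-fold in either direction. Every interval lies inside the dotted lines, and for Peg3, Phlda2, Grb10, Nnat and Magel2 an interval lies to a side of 0 in at least 1 panel.

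Fibroblasts express several imprinted genes, so the feeder markers are given beside these values. Their summed level lay between 12.90 and 13.04 (log2) on the control arrays, 13.04 and 13.25 with siRNA 1 and 13.09 and 13.10 with siRNA 2. With the siRNA average 12 of the 16 markers read higher (11176 of 19935 over all genes), with a median difference of 0.086 and 0 called. At an unadjusted p under 0.05 there were 4 (25%, against 6.31% of all genes), with Col1a1, Col1a2 and Acta2 higher and Twist1 lower. The part of these cells in the imprinted readings was not tested. In bulk RNA, fewer cells of a type and less RNA per cell cannot be told apart.

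The members varied in how steady they were between arrays of a group. The pooled SD within groups had a median of 0.069 over the 28 genes and 0.085 over all genes, and 19 of the 28 lay below the median gene. With genes sorted into 20 bins by level, 16 of the 28 lay below the median of their bin. Dlk1 was among the steadiest genes of all, with a pooled SD of 0.02 and a whole range of 0.06 over 8 arrays, and only 0.7% of genes had a lower SD. H13, the signal peptide peptidase gene, had 0.023, with 1.4% of genes lower, and Zim1 0.036, with 6.2% lower. Zim1 was of low signal, with a mean above 31.5% of genes, and lay above the array median on none of the 8 arrays. At the other end Zdbf2 had 0.173 and Airn 0.170, above 94.3% and 94% of genes. Airn was dim, and in the bins of level nearest to it the median SD was 0.104 and 0.109. The 90th percentiles of these bins were 0.175 and 0.176. Zdbf2 was bright, with siRNA 1 replicate 3 the lowest of its 8 arrays at 11.13. Rtl1 and Usp29, also at low signal, followed with 0.139 and 0.138.

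**Figure D4:**
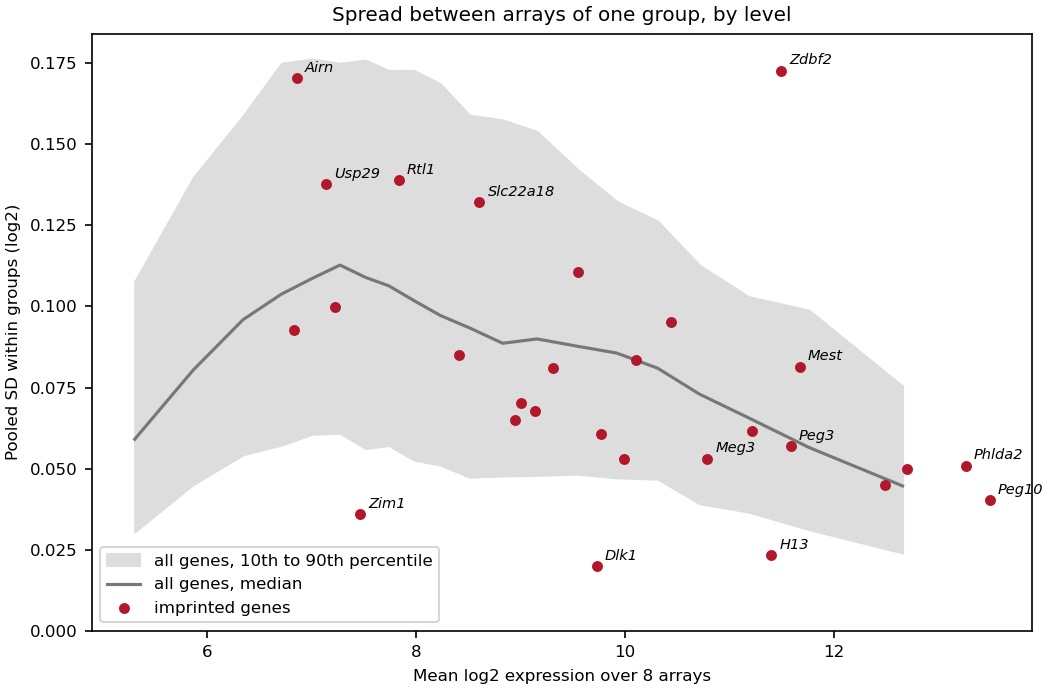
Pooled SD within groups (log2) against mean log2 expression over 8 arrays for the 28 imprinted genes (points). The median (line) and the 10th to 90th percentile (shading) are of all genes in 20 bins of level, drawn at the median level of each bin. Dlk1, H13 and Zim1 lie under the shading and Zdbf2 lies above it.

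The extreme values of the members fell on some arrays more than on others. siRNA 1 replicate 2 held the lowest value of 10 of the 28 genes, Igf2, Tssc4, Airn, Ndn, Sgce, Mest, Grb10, Slc38a4, Inpp5f and H13. It held the highest of 3, Usp29, Mkrn3 and Slc22a18, while 18.4% of all genes were lowest and 23.5% highest there. Of the 10, all but Airn lay above the array median on all 8 arrays. Of the 3, Slc22a18 also lay above it on all 8, while Usp29 and Mkrn3 lay above it on none. This array had the highest lower quartile (7.25) and the lowest upper quartile (10.04, against 10.06 to 10.18 on the others). Whether its narrower scale had a part in these counts was not tested. Control replicate 1 and siRNA 2 replicate 2 each held the highest value of 6 members, against 13.2% and 14.1% of all genes. Deviations of the members' median on any array were at most 0.037 on the log2 scale.

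Further imprinted genes and their neighbours were listed as well, 60 of them, with 51 measured. Of the 51, 21 lay above control and 30 below it for the siRNA average, against 11176 above and 8759 below over all genes. Their median was -0.033, with 0 called and 5 at an unadjusted p under 0.05 (9.8%, against 6.31% of all genes). Nearest to a call on the lower side were Qpct at -0.20 (SE 0.05), Ddc, which encodes an amino acid decarboxylase, at -0.18 (SE 0.06) and Asb4 at -0.15 (SE 0.05). On the higher side were Mas1, a receptor gene near Igf2r, at 0.13 (SE 0.05), Peg12 at 0.17 (SE 0.08) and Begain at 0.10 (SE 0.05), with limma's adjusted p at 0.769 for all 6. Mas1 read 6.42 to 6.61, below the lower quartile on all 8 arrays, so whether it was detected is unknown. Without control replicate 2, Peg12 lay at 0.095 and Asb4 at -0.089.

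Transcripts were also read for 24 genes of imprint maintenance and of DNA methylation and chromatin more widely, with Tet1, Tet2 and Dnmt3a among them. Zfp57 and Trim28, the zinc finger protein and the corepressor it recruits, lay above 98% and 99.7% of genes in mean level and differed by -0.02 (SE 0.04) and -0.02 (SE 0.05). Dnmt1 and Uhrf1, which copy methylation at replication, differed by -0.01 (SE 0.05) and 0.01 (SE 0.05). Of the 24, 8 lay above control and 16 below it for the siRNA average, against 11176 above and 8759 below over all genes. Their median was -0.016, and 0 were called. The rule for named genes gives Dppa3, a maternal factor that shields methylation in the zygote, at 0.32 (SE 0.08, limma's adjusted p = 0.769), Dnmt3l at 0.03 (SE 0.05), the chromatin remodeller Hells at -0.12 (SE 0.06) and Zfp445, which acts beside Zfp57, at -0.12 (SE 0.07). Without control replicate 1 Zfp445 lay at -0.067, and Dnmt3l ran from 0.007 to 0.065 over the arrays left out, with 0.065 without control replicate 1 and 0.007 without control replicate 2 or 3. Dppa3 was the only 1 of the 24 at an unadjusted p under 0.05, against 6.31% of all genes.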

How the data were processed

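Each sample's total RNA went onto 1 Affymetrix gene array. The authors deposited log2 values per probe set, and the submitters' processing notes name RMA; its version was not given in the sources. Because RMA gives all arrays like distributions, it would hide a shift common to most genes. Of 28815 probe sets 21780 carry 1 gene symbol in the platform annotation, 1605 several and 5430 none; the last 2 kinds were not named. The probe set with the highest mean stood for a gene. All 28 members matched RefSeq by gene identifier, and 0 symbols changed.

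Groups and replicate numbers came from the sample titles, which speak of differentiation, unlike the series title and the growth protocol, which speak of pluripotency. All 8 arrays entered 1 limma model with group means (limma 3.58.1 in R 4.3.3), with two-sided moderated tests and Benjamini-Hochberg adjustment over 19935 genes; the call threshold was 0.05. Intervals and SEs are those of the fit. Its calls and signs were tested on simulated data with independent noise, which did not check the intervals. The number of arrays limits the precision. Figures used Python 3.11.15 and matplotlib 3.10.9.

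The members and lists were chosen with earlier results of these data known. Differences were given for the 8 members with the smallest unadjusted p for the siRNA average and 4 in each other comparison. The rule also took up to 3 further imprinted genes and 2 imprint maintenance genes per direction, and Ppp3cb. Usp29, and the Zfp57, Trim28, Dnmt1 and Uhrf1 values, were added after values were seen. Those of Tssc4, Slc22a18, Ndn, Mkrn3 and Rian are likewise outside the rule. For Ppp3cb the siRNA average lay 0.31 above control (SE 0.11, adjusted p = 0.769), or 0.472 without siRNA 1 replicates 1 and 2. Markers of trophectoderm, extraembryonic endoderm, macrophages and neural cells had median differences of 0.015, 0.034, -0.01 and -0.011, and pluripotency markers -0.026. Alternatives were repeated quantile normalization, median centring, an expression filter, trend and robust moderation, array weights, probe-set choices, only the groups compared, a replicate block, the arrays' lower quartile as a covariate and leaving out arrays. Same-numbered arrays did not deviate together (correlations -0.547 to 0.219), so numbers were not taken as pairs.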

Additional observations from a re-analysis of the deposited data

How the results depend on the processing

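The alternatives are given for 32 differences, those of the naming rule and that of Usp29, not for Zfp57, Trim28, Dnmt1, Uhrf1, Rian or members outside the rule. The sign of all 32 was the same under every alternative that could be run, 18 for the siRNA average and 19 for the other comparisons, or 1 fewer for the genes that the expression filter removes. Array weights called 14 genes and 0 members for the siRNA average, and 1436 genes for siRNA 1 with 3 members among them, Peg3 at -0.318 (limma's adjusted p = 0.022, in a range of 0.022 to 1 over the alternatives), Zdbf2 at -0.383 (0.0328) and Grb10 at -0.171 (0.0465). That fit weighted siRNA 1 replicate 3 by 3.56 and replicates 1 and 2 by 0.31 and 0.41. Trend and robust moderation called 3 genes and 0 members between the siRNAs. Every other alternative called 0 members. With a replicate block 0 genes and 0 members were called, and 2, 1, 1 and 1 members had an unadjusted p under 0.05 in the 4 comparisons (4.43%, 3.12%, 4.46% and 2.77% of all genes), in place of 2, 2, 3 and 2. The highest such counts were 8 for the siRNA average and 8 for siRNA 1, both with array weights, when 21.4% and 29% of all genes passed, 6 for siRNA 2 (11.5%) and 5 between the siRNAs (6.87% to 10.5%). With the arrays' lower quartile as a covariate the siRNA averages of Nap1l5, Magel2, Grb10 and Usp29 were 0.074, 0.065, -0.045 and 0.048, and after repeated quantile normalization those of Nap1l5, Nnat, Mas1, Begain and Usp29 were 0.082, -0.049, 0.079, 0.056 and 0.068. The median difference of the members ran from -0.032 to -0.002 for the siRNA average, for siRNA 1 from -0.0496 to -0.0013, and for siRNA 2 from -0.018 to 0.031, so the sign for siRNA 2 is not settled. The median pooled SD was 0.059 after repeated quantile normalization and 0.06 to 0.074 with an array left out. Where siRNA 2 is left with 1 array, that array is assumed to vary like the other groups.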
